A study of Homo sapiens with 16 samples.

Results

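PABPC1, PABPC3 and PABPC4 encode cytoplasmic poly(A)-binding proteins, and their transcripts are described here across 16 libraries of HCC70 cells, a basal-like human breast cancer line. The members were taken by symbol from the deposited table, and these 3 of its 11282 genes were found (PABPC1, ENSG00000070756; PABPC3, ENSG00000151846; PABPC4, ENSG00000090621). They were chosen by their normalized signal across the groups of these libraries, so their differences between groups are descriptions, with no test. The cells carried short hairpin RNA (shRNA) constructs against KLF5, RBPJ, NFIB or FOXA1, all transcription factors, or a control construct named plko, shRFP, shLACZ or shLUC, with 2 libraries each. That the controls target no human gene is read from their names alone. The 8 control libraries are the same in every comparison. Each library, of the controls too, has a construct identifier of its own in the labels. Libraries 1 and 2 of a name are therefore taken to carry different constructs, which the identifiers alone do not settle. No library of uninfected cells is described here, so all groups share the infection, the growth in small wells and the 3′-end RNA amplification. The series concerns regulators of cell-state mixture in basal-like breast cancer.

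Cytoplasmic poly(A)-binding proteins coat the poly(A) tail of mRNA with tandem RNA recognition motifs, and a C-terminal MLLE domain docks proteins that carry a PAM2 peptide. Through eIF4G they connect the tail with the cap-binding complex, through eRF3 with translation termination, and through PAN3 and the GW182 (TNRC6) proteins with tail shortening. PABPC1 is the major form in most cells, and its mRNA belongs to the 5′ terminal oligopyrimidine (5′ TOP) class, whose translation follows growth signals and which LARP1 binds. PABPC4, also called inducible PABP, was first described in activated T cells. PABPC3 is an intronless gene known for expression in testis, so reads assigned to it in an epithelial line call for a look at its sequence.

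In sequence PABPC3 is close to PABPC1 and PABPC4 is less so, which bears on how far their reads can be told apart. The coding sequence of PABPC3 matched that of PABPC1 at 1806 of 1890 aligned bases (95.6%), whereas PABPC4 matched PABPC1 at 1422 of 1845 (77.1%). The 60 coding bases where PABPC3 departs most from PABPC1 are printed, exonic, from chr13:25096327-25096386 on the plus strand, with capitals at the 11 bases that differ from PABPC1. The aligned stretch of PABPC4, from chr1:39575764-39575823 on the minus strand, has capitals at the 19 bases that differ from PABPC3. Both come from GENCODE 29 transcripts, in GRCh38 coordinates.
PABPC3: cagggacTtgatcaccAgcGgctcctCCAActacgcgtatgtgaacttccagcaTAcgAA
PABPC4: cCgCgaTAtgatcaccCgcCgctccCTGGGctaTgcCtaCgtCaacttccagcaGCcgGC
Even in its most divergent stretch PABPC3 keeps a run of 24 bases in common with PABPC1. The libraries start from the 3′ end, so the end of the transcript matters more than the coding region. The last 300 bases of the PABPC1 transcript matched PABPC3 at 278 of 294 aligned bases (94.6%). Of the 25-base windows in those 300 bases, 67 of 276 (24.3%) occurred unchanged in PABPC3 and 0 of 276 in PABPC4. Of the 50-base windows 0 of 251 occurred unchanged in either, and of the 75-base windows 0 of 226. Over the whole PABPC3 transcript, 226 of 3338 windows of 50 bases (6.77%) occurred unchanged in PABPC1. At 75 bases it was 81 of 3313 (2.44%). Neither the read length nor the treatment of reads with several matches is given in the sources used here. How many of the reads listed under PABPC3 came from PABPC1 transcripts was not tested, and the PABPC3 values are uncertain for that reason.

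The libraries held 375713 reads (plko 1) to 3090666 reads (RBPJ 1), with a median of 1164801.5, and the values below are the deposited normalized signal. The 2 libraries of a name differed by more than counting noise, with chi-square values of 1.96 (shRFP) to 18.8 (RBPJ) per degree of freedom. That spread includes any difference between their constructs. For an equal spread this value also rises with read number, so it does not rank the names by how much their libraries differ. The targeted transcripts were at 66.0% and 39.4% of the control mean in KLF5 1 and 2, at 84.3% and 16.6% for RBPJ, at 61.8% and 11.0% for NFIB, and at 22.8% and 54.8% for FOXA1, so the library labelled RBPJ 1 had little loss of its target. All 10 epithelial and basal markers were in the table, with KRT5 at 2085 to 4517 over all libraries and TP63 near the floor at 0.68 to 4.78. The summed value of the 10 varied between libraries, at 4585 to 5150 with KLF5 hairpins, 3964 to 9118 with RBPJ and 3703 to 8428 with NFIB. It was 5642 to 8681.5 with FOXA1, against 3462 to 7134 in the controls. Of 11 fibroblast and endothelial markers 5 were in the table, and COL3A1, LUM, PDGFRB, PECAM1, VWF and CDH5 were not. Their summed value was 46.2 to 50.2 with KLF5 hairpins, 27.8 to 35.6 with RBPJ, 49.2 to 51.0 with NFIB and 17.8 to 28.5 with FOXA1, against 13.2 to 31.5 in the controls. Of 8 leukocyte and blood markers only PTPRC and CD68 were in the table, and PTPRC was at 0 to 3.55. CD68 was higher, at 14.9 to 48.8 with target hairpins and 8.82 to 31.1 in the controls.

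PABPC1, a gene of 15 exons on chromosome 8 (GENCODE 29), was lower than in every control with KLF5, RBPJ or NFIB hairpins and overlapped the controls with FOXA1 hairpins. Its value was 274.0 in NFIB 1 and 325.7 in NFIB 2. With RBPJ hairpins it was 356.1 and 366.5, and with KLF5 hairpins 464.9 and 400.2. All of these lay under the lowest control. FOXA1 1 was at 822.3 and FOXA1 2 at 748.0. The 8 controls ran from 509.7 (shLACZ 1) through a median of 716.1 to 786.9 (plko 2), with a mean of 680.6 ± 98.0 (SD, n = 8). The mean of 2 libraries was thus 44.1% of the control mean for NFIB, 53.1% for RBPJ, 63.6% for KLF5 and 115% for FOXA1.

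On the log2(value + 1) scale the PABPC1 difference from the controls was -1.17 for NFIB, -0.90 for RBPJ, -0.64 for KLF5 and 0.22 for FOXA1, each with an SE of 0.18 from a linear model over all libraries. The SD between the 2 libraries of a name, which are taken to carry different constructs, was 0.13 log2. Both libraries lay below the whole control range with NFIB, RBPJ and KLF5 hairpins. That held for 2.85% of the 10826 tested genes in the NFIB comparison, 2.03% in the RBPJ comparison and 6.96% in the KLF5 comparison, while 3.28%, 2.43% and 9.31% had both libraries above it. Over all tested genes, the members' rows included, 581 (5.37%) passed the adjusted threshold of 0.05 in the KLF5 comparison, 3 (0.0277%) in the RBPJ, 1 (0.00924%) in the NFIB and 1 (0.00924%) in the FOXA1 comparison (limma), and nothing about the members is read from these counts. They rest on few libraries. The KLF5 count was 78 without KLF5 1, 99 without KLF5 2 and 883 without plko 1, the RBPJ count 142 without RBPJ 1 and 0 without RBPJ 2, and the FOXA1 count 26 without FOXA1 1. Over all such fits the ranges were 78 to 883 for KLF5, 0 to 142 for RBPJ, 0 to 2 for NFIB and 0 to 26 for FOXA1. In RNA of a whole culture, fewer cells rich in PABPC1 and less PABPC1 mRNA per cell cannot be told apart.

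The 2 libraries of a target differed in how much of the targeted transcript was left, and their PABPC1 values are set beside it as a description. With NFIB hairpins it was 274.0 in the library with 61.8% of NFIB mRNA and 325.7 in the library with 11.0%. With RBPJ hairpins it was 356.1 where RBPJ mRNA was at 84.3% and 366.5 where it was at 16.6%. With KLF5 hairpins it was 464.9 with 66.0% of KLF5 mRNA and 400.2 with 39.4%. With FOXA1 hairpins it was 822.3 with 22.8% of FOXA1 mRNA and 748.0 with 54.8%. The loss was not particular to the target, since NFIB mRNA was lower in RBPJ 2 (52.3%) than in NFIB 1 (61.8%). With 2 libraries a target, no relation between target loss and PABPC1 could be tested. PABPC1 was counted from 318 to 1432 reads per library (12222 in all). The libraries of NFIB, RBPJ and KLF5 held 690631 to 3090666 reads, against 375713 to 1264671 in the controls, and the fibroblast and endothelial sum was above every control with NFIB and KLF5 while RBPJ and FOXA1 overlapped them. The part of depth, of that marker sum and of the barcoding batches in these levels was not tested.

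**Figure D1:**
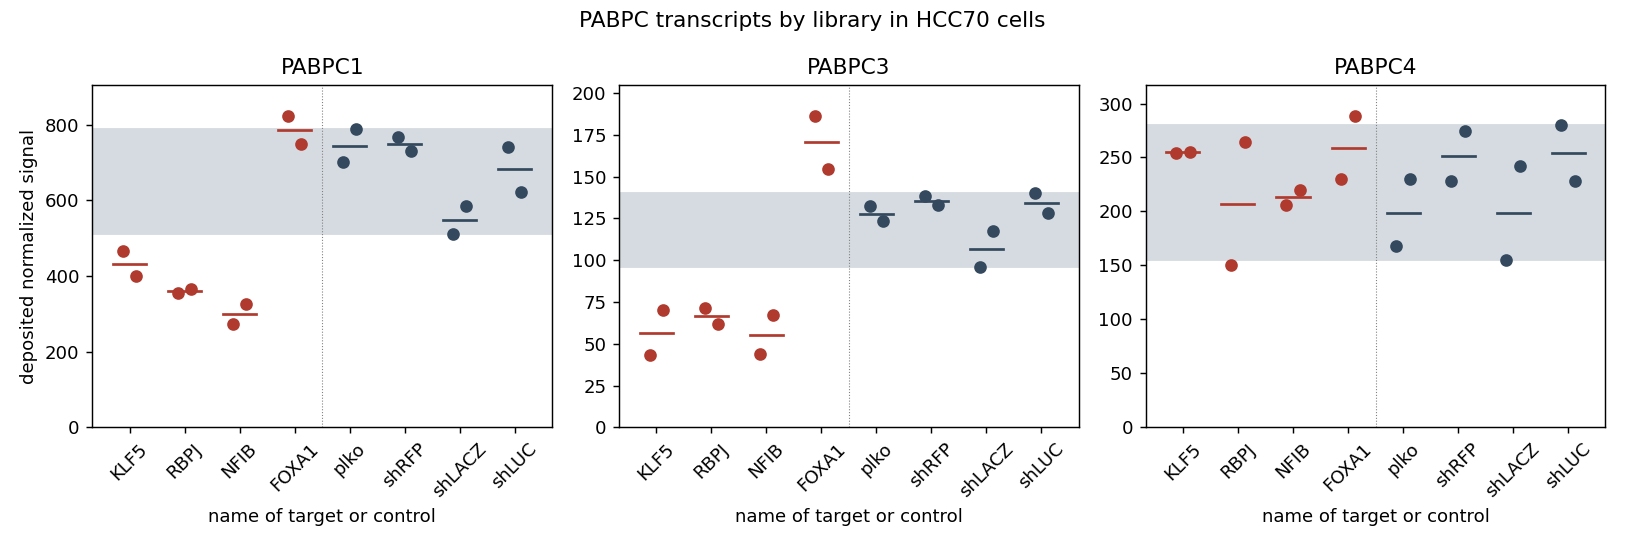
Deposited normalized signal of PABPC1, PABPC3 and PABPC4 (vertical axes, each from 0) in each of the 16 libraries, with target hairpins left of the control constructs, bars at the mean of 2 libraries and a grey band over the range of the 8 controls. PABPC1 and PABPC3 lie below all 8 controls with KLF5, RBPJ and NFIB hairpins, and PABPC4 overlaps the controls (154.9 to 279.8) with every target.

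The 8 names ranked by mean PABPC1 as FOXA1 (785), shRFP (749), plko (744), shLUC (681), shLACZ (548), KLF5 (433), RBPJ (361) and NFIB (300). Neighbours from FOXA1 down to shLUC had overlapping libraries, so their order is not resolved. From shLUC on, the 2 libraries of each name lay wholly above those of the next. The controls themselves were spread, with shLACZ at 509.7 and 585.7 below the other 6 control libraries, which ran from 621.1 to 786.9. The names were ranked by these same values. How many of all genes show such gaps between neighbouring names was not counted, so the order is a description. The plko libraries did not stand apart at this gene, with 701.6 and 786.9 against 509.7 to 767.5 in the 6 hairpin controls and a log2 difference of 0.19 (SE 0.17). Of all tested genes, 12.3% had both plko libraries below and 9.94% above the hairpin controls.

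PABPC3, a gene of 1 exon on chromosome 13, followed PABPC1 in direction with every target, at a lower read number. It was at 43.7 and 67.1 with NFIB hairpins, at 71.6 and 62.1 with RBPJ hairpins and at 43.4 and 70.0 with KLF5 hairpins. FOXA1 hairpins gave 186.3 and 154.7. The controls ran from 95.7 (shLACZ 1) through a median of 130.5 to 140.5 (shLUC 1), with a mean of 126.2 ± 14.4 (SD, n = 8). NFIB, RBPJ and KLF5 lay below all controls, and FOXA1 lay above all of them. The means were 43.9% of the control mean for NFIB, 53.0% for RBPJ, 44.9% for KLF5 and 135% for FOXA1. The log2 differences were -1.20, -0.90, -1.17 and 0.43 in that order, each with an SE of 0.21. In the FOXA1 comparison, 2.31% of tested genes had both libraries above every control and 2.76% below. With 60 to 288 reads per library, the SD between the 2 libraries of a name was 0.26 log2, wider than for PABPC1.

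In the order of PABPC3 means, FOXA1 (171) stood above shRFP (136), shLUC (135) and plko (128), whose libraries overlapped. Next came shLACZ (107), below plko without overlap. RBPJ (66.9), KLF5 (56.7) and NFIB (55.4) were lower than shLACZ without overlap and overlapped one another. Thus shLACZ was the lowest control by its mean for both genes. Against the 6 hairpin controls, plko differed in PABPC3 by 0.03 log2 (SE 0.18).

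Within a library, the share of PABPC3 among the reads of both genes was nearly constant. RBPJ libraries had 16.7% and 14.5% and NFIB libraries 13.8% and 17.1%, against 13.5% (plko 2) to 17.2% (shLUC 2) in the controls, whose mean was 15.7% ± 1.08 (SD, n = 8). All 4 lay inside the control range. FOXA1 2 had 17.1%, and FOXA1 1 had 18.5% (exact 95% interval 16.6% to 20.5%), just above it. KLF5 1 was the exception, with 61 reads of PABPC3 beside 654 of PABPC1, a share of 8.53% (6.59% to 10.8%). KLF5 2 had 14.9% (11.6% to 18.7%), so the lower mean share with KLF5 hairpins rested on 1 library. The intervals cover counting error only. Reads of 1 transcript listed under both genes and 2 transcripts that vary alike cannot be told apart from gene counts.

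**Figure D2:**
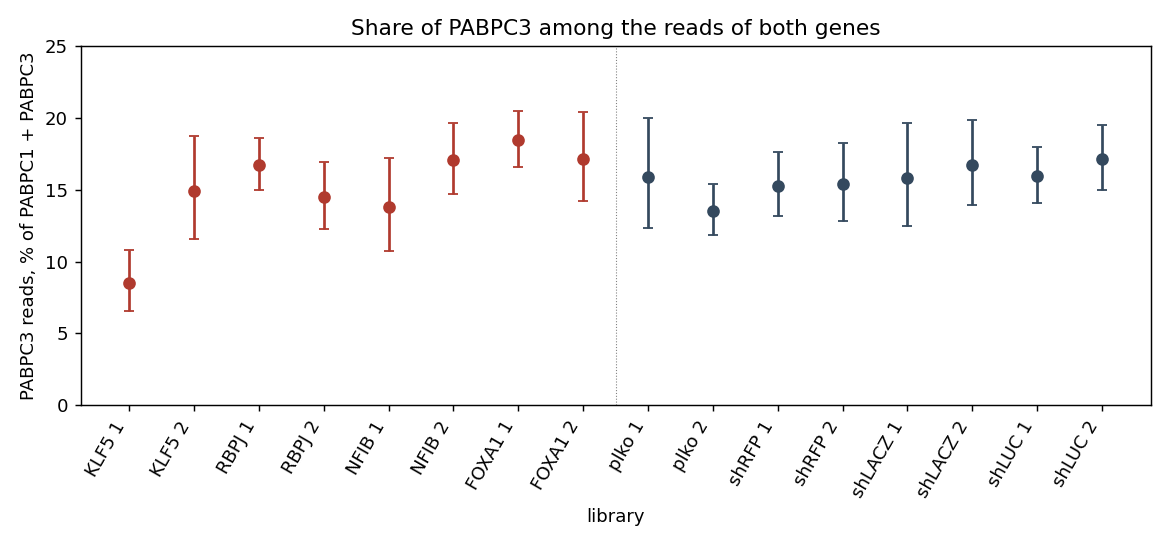
PABPC3 reads as a percentage of PABPC1 plus PABPC3 reads in each library (vertical axis from 0), with exact 95% binomial intervals as bars and target hairpins left of the controls. Apart from KLF5 1 at 8.53%, the libraries lie between 13.5% and 18.5%.

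PABPC4, with 16 exons on chromosome 1, showed no separation between any target and the controls. It was at 253.8 and 255.5 with KLF5 hairpins, at 149.9 and 264.1 with RBPJ hairpins, at 206.4 and 220.2 with NFIB hairpins and at 229.8 and 288.4 with FOXA1 hairpins. The controls ran from 154.9 (shLACZ 1) through a median of 229.3 to 279.8 (shLUC 1), with a mean of 225.7 ± 44.7 (SD, n = 8). Every target overlapped this range. The means were 113%, 91.7%, 94.5% and 115% of the control mean for KLF5, RBPJ, NFIB and FOXA1. The log2 differences were 0.20, -0.15, -0.06 and 0.22, none larger than its SE of 0.23. Its 2 RBPJ libraries differed most, and the difference was -0.56 without RBPJ 2 and 0.25 without RBPJ 1.

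For PABPC4 the means by name ran from 259 (FOXA1) through KLF5 (255), shLUC (254), shRFP (251), NFIB (213), RBPJ (207) and plko (199) to 198 (shLACZ). Only shRFP and NFIB were neighbours without overlap, so most of this order is not resolved. Plko was 0.23 log2 lower than the 6 hairpin controls (SE 0.20), inside their range. The SD between the 2 libraries of a name was 0.31 log2, and reads per library ran from 76 to 603. PABPC1 and PABPC4 thus differed in what their groups showed in the same libraries: with NFIB hairpins PABPC1 was at 44.1% of its control mean and PABPC4 at 94.5% of its own. The difference between the 2 genes was not tested, since both were chosen with these values known.

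The rest of the family was sparsely covered. PABPC1L, a relative known from oocytes and early embryos in vertebrates, had 1 to 30 reads per library and values of 0.66 to 8.45, too near the floor of 3 counts for a comparison. PABPC1L2A, PABPC1L2B, PABPC4L, PABPC5 and PABPN1L were not found by symbol in the table. PABPN1, the nuclear poly(A)-binding protein that stimulates poly(A) polymerase, was at 194.1 and 147.0 with KLF5 hairpins, at 158.6 and 254.2 with RBPJ, at 145.6 and 194.9 with NFIB and at 166.6 and 166.7 with FOXA1, against 79.4 to 239.9 in the controls. The low end was plko 1 alone (36 reads), and the other controls ran from 164.2 to 239.9. KLF5 2, RBPJ 1 and NFIB 1 lay below those other controls. For PABPN1 the differences below are from all 8 controls. Its log2 difference was between -0.01 and 0.26 for the 4 targets, none past the threshold (limma adjusted p of 0.979 to 0.999, n = 2 against 8).

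Genes that work with these proteins were read from 5 lists covering deadenylation, translation partners, poly(A) polymerases and nuclear binding, decapping with 5′-to-3′ decay, and 5′ TOP translation factors. The lists, like the members, were chosen with earlier results of these data known, so their counts and medians are no independent support. Of the 85 genes listed, 82 were tested. GSPT2 and EEF1G were not in the table, and TNRC6C was under the filter. With KLF5 hairpins 5 of 82 fell and 0 rose, beside 3.07% lower and 2.30% higher over all genes (limma, Benjamini-Hochberg adjusted p under 0.05). At an unadjusted p under 0.05 there were 13 lower and 9 higher, beside 1117 lower and 1061 higher of the 10826 genes tested. The median log2 difference over the 82 was -0.03, against 0.05 over all tested genes. Of the 5, 4 were 5′ TOP genes, a list of 14 tested with a median of -0.48 and 11 negative values. Over all genes tested, 5034 of 10826 values were negative. The other lists had medians of 0.01 (deadenylation, 1 of 19 fell), 0.00 (translation partners, 0 of 22), -0.14 (poly(A) polymerases and nuclear binding, 0 of 10) and 0.16 (decapping and decay, 0 of 17). In those 3 lists with no call, 7, 0 and 5 genes were at an unadjusted p under 0.05.

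TPT1, the translationally controlled tumour protein and a classical 5′ TOP mRNA, had 318.5 and 359.4 with KLF5 hairpins, against 654.9 to 984.1 in the controls (mean 859.4 ± 114.1, SD, n = 8). Its log2 difference was -1.33 ± 0.19 (SE; limma adjusted p = 0.000461), and the groups did not overlap. EIF3E, a subunit of the initiation factor eIF3, had 27.0 and 39.7 against 52.7 to 97.3 in the controls (log2 difference -1.29 ± 0.23, limma adjusted p = 0.00296). EIF3L, another eIF3 subunit, had 41.2 and 37.3 against 64.3 to 98.6 (-1.05 ± 0.20, adjusted p = 0.00436). These 3 transcripts lay below every control with both KLF5 hairpins. EEF1A1, the elongation factor that brings tRNA to the ribosome, had 4.98 and 1.17 (1 read in KLF5 2) against 4.41 to 55.2 (-2.78 ± 0.62, adjusted p = 0.0112). Its lowest controls were the plko libraries at 4.41 and 8.05, so the groups overlapped, and the many near-identical copies of EEF1A1 in the genome make its count uncertain. CNOT11, a subunit of the CCR4-NOT deadenylase that shortens the tails these proteins bind, had 34.8 and 44.3 against 66.2 to 112.9 (-1.10 ± 0.22, adjusted p = 0.0048).

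None of these 5 passed with plko as the only control, where their log2 differences were -1.16 (TPT1), -1.05 (EIF3E), -0.92 (EIF3L), -0.87 (CNOT11) and -0.96 (EEF1A1). The count of 5 became 14 against the 6 hairpin controls alone and 2, 3 and 8 without KLF5 1, KLF5 2 and plko 2. TPT1 passed in each of these but the plko-only fit. The KLF5 count over all tested genes also moved widely when 1 library was left out, as given above. The shifts of the list count are thus not read as a trait of the lists. NFIB hairpins, with the lowest PABPC1, had TPT1 at 768.2 and 1096.8. RBPJ hairpins gave TPT1 values of 763.4 and 848.9, inside the control range of TPT1.

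With RBPJ, NFIB and FOXA1 hairpins 0 of the 82 genes passed (limma; edgeR and DESeq2 also gave 0 for each). At an unadjusted p under 0.05 there were 7 for RBPJ, 4 for NFIB and 1 for FOXA1, beside 593, 721 and 552 of the 10826 genes tested. The medians over the 82 were 0.02, 0.06 and 0.08 log2, against 0.05, 0.05 and 0.00 over all tested genes. The 5′ TOP list had medians of -0.04, 0.09 and 0.07. EIF3E had 46.5 and 68.8 with RBPJ hairpins (log2 difference -0.52, limma adjusted p = 0.879) and 49.2 and 44.7 with NFIB hairpins (-0.78, adjusted p = 0.53), against the same controls of 52.7 to 97.3. CNOT11 had 131.5 and 121.4 with RBPJ and 142.1 and 121.9 with NFIB, above the control range of 66.2 to 112.9, and its differences of 0.56 and 0.61 did not pass. Its value with KLF5 hairpins was on the other side of the controls.

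**Figure D3:**
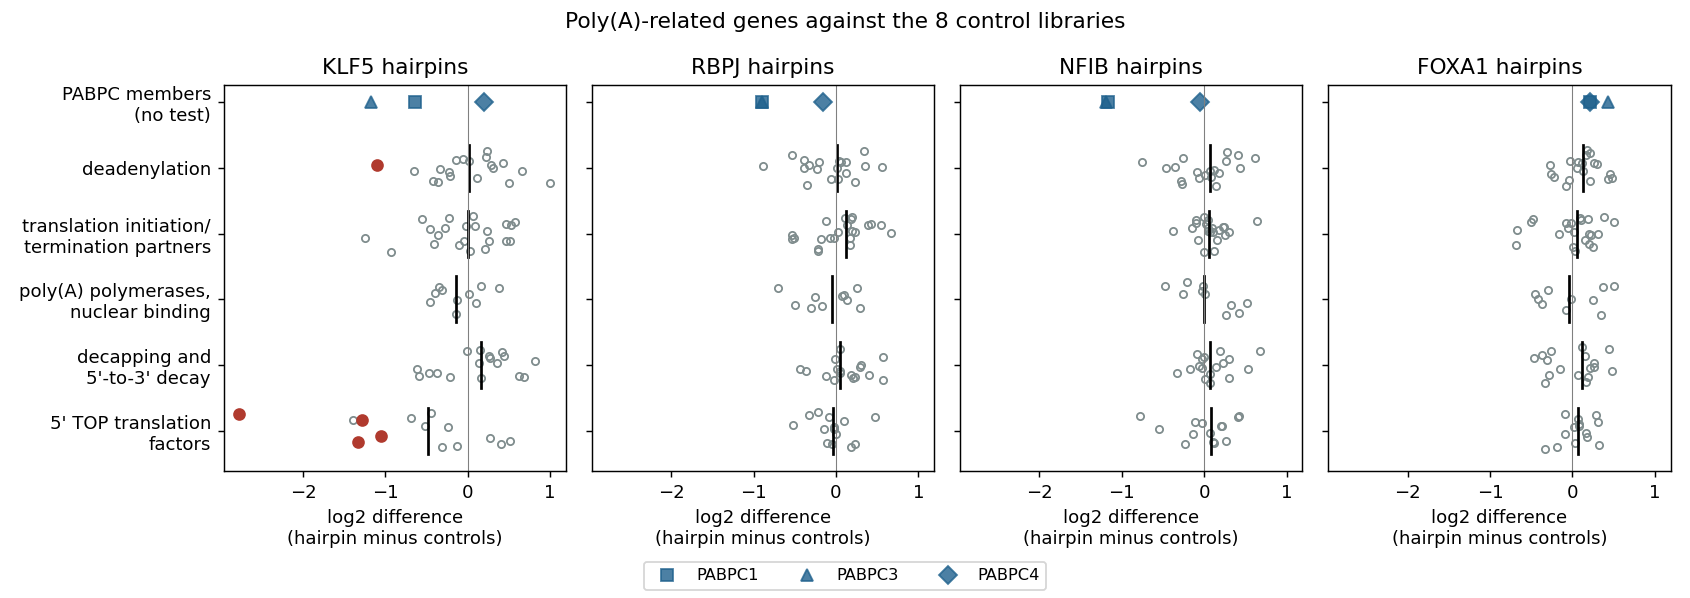
Log2 difference from the 8 control libraries (horizontal axis) for the 3 members (blue, not tested) and for the genes of 5 lists (1 row each), in 1 panel per target, where filled red points passed the adjusted threshold, open points did not, and black bars are list medians. The 5 passing genes are all in the KLF5 panel, where the 5′ TOP list has a median of -0.48. The lists were chosen with earlier results of these data known.

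Among the direct partners of PABPC, none passed in the 4 target comparisons. EIF4G1, the scaffold that holds the cap-binding protein and PABPC, was nearest to the threshold, with 71.1 and 74.7 with KLF5 hairpins against 94.9 to 249.0 in the controls (log2 difference -0.93 ± 0.28, limma adjusted p = 0.0533). Both KLF5 libraries lay below every control, and the 2 plko libraries were the lowest controls at 94.9 and 104.7. It passed against the 6 hairpin controls alone, with edgeR and with DESeq2. EIF4G1 was at 162.4 and 218.1 with RBPJ, 179.0 and 116.4 with NFIB and 216.0 and 183.3 with FOXA1, all within the control range.

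The translational regulators PAIP1 and PAIP2, an activator and an inhibitor of PABPC, had differences of -0.67 to 0.18 and -0.08 to 0.25 over the 4 targets. The PAIP1 difference of -0.67, with FOXA1 hairpins, rests on 3 reads in FOXA1 2 and ran from -1.24 to -0.10 when 1 library was left out, and the PAIP2 difference with RBPJ hairpins ran from -0.48 to 0.32. PAN3, the subunit that recruits the PAN2 deadenylase to PABPC, ran from -0.54 (RBPJ) to 0.11 (KLF5). GSPT1, the termination factor eRF3a, was within 0.11 log2 of the controls for every target (SE 0.19), and its KLF5 difference ran from -0.29 to 0.07 when 1 library was left out. LARP1, which binds 5′ TOP mRNAs, ran from -0.38 (NFIB) to 0.31 (FOXA1). TNRC6A and TNRC6B, the microRNA effectors, ran from -0.29 to 0.43 and from -0.23 to 0.30. None of these passed, with a lowest limma adjusted p of 0.3 (TNRC6A with KLF5 hairpins), which does not show that they were unchanged.

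The controls set the background for these readings. Plko against the 6 hairpin controls gave 6 of 82 genes past the threshold, 2 higher and 4 lower, beside 9.41% of all tested genes (2.84% higher and 6.58% lower), 1019 genes that became 307 without plko 1 and 1545 without plko 2. EEF1A1 fell to 4.41 and 8.05 in plko, against 22.1 to 55.2 in the hairpin controls (log2 difference -2.42, limma adjusted p = 5.29e-05). EIF3F, an eIF3 subunit, fell to 4.41 and 6.20 against 13.9 to 22.5 (-1.49, limma adjusted p = 0.00727). These calls rest on few reads in plko 1 and 2, at 2 and 13 for EEF1A1 and 2 and 10 for EIF3F. EEF1B2, the exchange factor of EEF1A1, rose to 247.1 and 226.2 against 109.0 to 160.6 (0.82, adjusted p = 0.00803). EDC4, a decapping scaffold, fell (-0.82, adjusted p = 0.0111), and USP10, a deubiquitinase that binds the stress-granule protein G3BP1, rose (0.75, adjusted p = 0.0204). PABPN1 fell (-0.74, adjusted p = 0.0343) with 79.4 and 164.2 against 172.8 to 239.9, and that call was lost with edgeR and with DESeq2. Without plko 1, the shallowest library, EEF1A1 and RACK1 were the 2 that passed, and without plko 2 there were 10.

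The genes whose profiles over the 16 libraries lay nearest to PABPC1 were PRR11, THRAP3, DDX17, PABPC3, PLCXD3 and SLK. Nearness is the root mean square distance between log2(value + 1) profiles centred on their own means, and it was 0.26, 0.27, 0.28, 0.28, 0.30 and 0.30 in that order. The median distance over all tested genes was 0.67, and the PABPC1 profile itself had a root mean square of 0.51. PABPC4 came at rank 1271 with a distance of 0.51. Ranked from PABPC3, the nearest gene was PABPC1.

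PRR11, a cell-cycle gene, averaged 42.9 with NFIB, 51.5 with RBPJ, 59.7 with KLF5 and 78.8 with FOXA1 hairpins, against 75.8 ± 12.2 in the controls (SD, n = 8). DDX17, an RNA helicase, averaged 168, 173, 202 and 287 in the same order, against 268.6 ± 41.5. THRAP3, a factor of pre-mRNA splicing, averaged 36.4, 43.8, 48.1 and 66.9, against 66.9 ± 15.5. The kinase SLK averaged 43.3, 48.2, 55.3 and 66.9, against 73.5 ± 17.3. PLCXD3, a phospholipase-like gene, averaged 134, 144, 172 and 253, against 273.1 ± 67.2. These 5 genes have NFIB lowest and KLF5 the highest of NFIB, RBPJ and KLF5, as PABPC1 does, which is what the selection asks for.

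PABPC4 had a flatter profile (root mean square 0.28) and nearer neighbours: EIF4G2 at 0.19, MSN at 0.19, NAPG, ACIN1 and KARS1 at 0.20 and CSNK2B at 0.21, with a median of 0.51 over all genes. EIF4G2, an eIF4G relative that lacks the eIF4E-binding part, averaged 781.5 with KLF5, 852.0 with RBPJ, 742.6 with NFIB and 860.4 with FOXA1 hairpins, against 762.6 ± 168.8 in the controls. MSN (moesin, which ties actin to the membrane) averaged 637, 502, 466 and 617, against 538.6 ± 68.1. KARS1, the lysyl-tRNA synthetase, averaged 272, 300, 269 and 287, against 269.2 ± 26.8. NAPG averaged 66.9, 65.1, 58.5 and 74.1, against 70.3 ± 16.1. ACIN1 averaged 134, 113, 107 and 159, against 127.2 ± 23.0, and CSNK2B 416, 360, 354 and 326, against 334.4 ± 41.8. PABPC4 itself was lowest in RBPJ 1 (149.9), shLACZ 1 (154.9) and plko 1 (167.7), libraries of a target and of 2 controls. Nearness is over 16 libraries that share controls, depth and normalization.

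**Figure D4:**
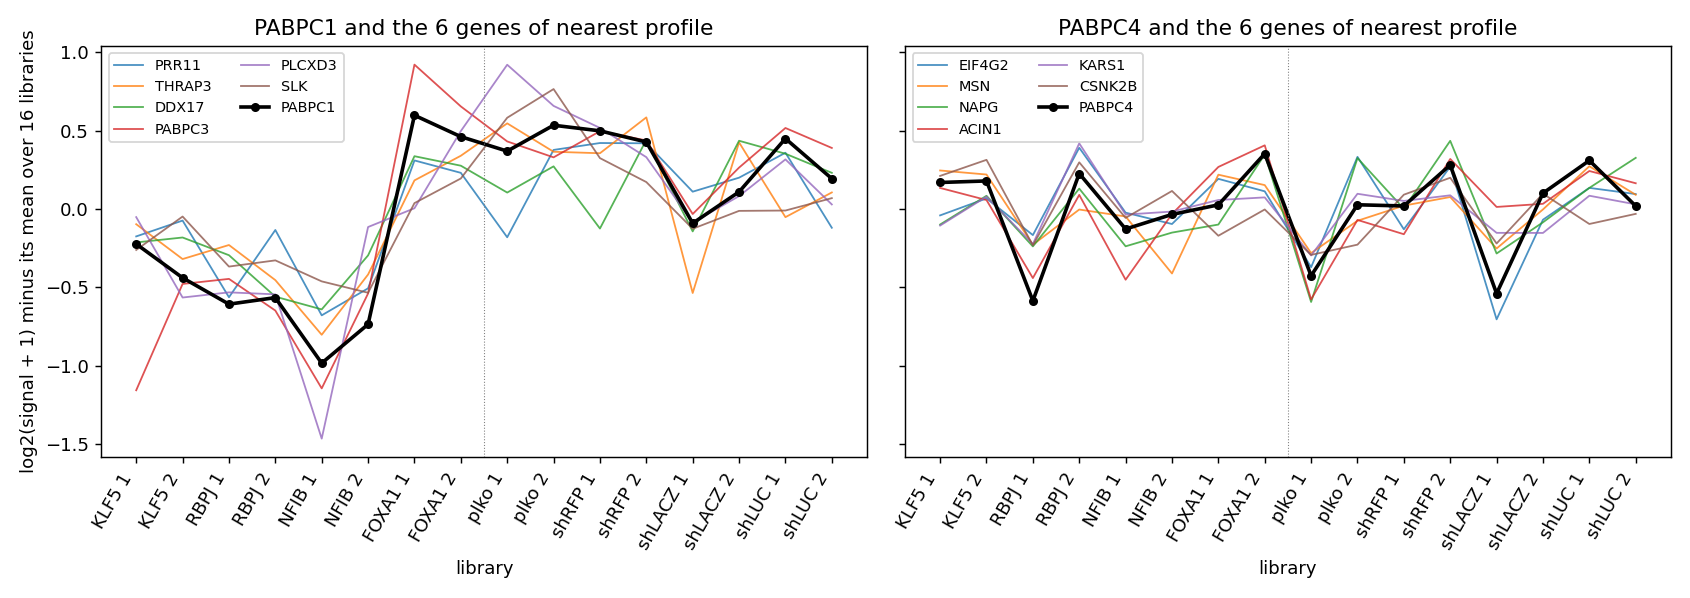
Centred log2(value + 1) profiles over the 16 libraries (horizontal axis, target hairpins left of controls) for PABPC1 with its 6 nearest genes and for PABPC4 with its 6 nearest genes; the member is the bold line. The lines around PABPC1 dip with KLF5, RBPJ and NFIB hairpins. Those around PABPC4, with a root mean square of 0.28 for PABPC4, differ among themselves. With RBPJ and NFIB hairpins MSN, NAPG and ACIN1 averaged below the control mean, CSNK2B averaged above it, and EIF4G2 and KARS1 were mixed.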

How the data were processed

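The authors deposited 1 table of normalized signal per gene, named as DESeq2-normalized in the table's own name. Per the submitters' processing notes, reads were placed on GRCh37. No source used here names the aligner, counting method, annotation or use of molecular identifiers. RNA was made into 3′ cDNA, barcoded in batches of 12 and amplified by in vitro transcription after CEL-Seq, per the labels' protocols. Some samples were sequenced again, and which ones, and which shared a batch, is not given. In each library 100% of the deposited signal values were whole multiples of 1 read within 0.05 of a read, so whole reads were recovered and used for read numbers, depth, and edgeR and DESeq2 as alternatives. Another 2 columns of the table belong to no sample in the labels and were not used. Symbols were found for 11259 of 11282 identifiers.

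The test was limma 3.58.1 (R 4.3.3) with a mean-variance trend on log2(value + 1), which understates changes of low genes, with 5 levels (all controls and each target) over 16 libraries. The filter asked for 5 or more in at least 2 libraries (10826 genes tested, 456 removed), with Benjamini-Hochberg adjusted p under 0.05, 2-sided. Plko was tested against the 6 hairpin controls within the 8 controls. The code was tested on simulated data. Labels do not say whether libraries came from separate cultures, so p-values measure only the spread between these samples, and between targets they include differences between hairpins. Alternatives were edgeR 4.0.16, DESeq2 1.42.0, TMM scaling, a pseudocount of 0.5, no filter, 8 levels, other control sets, a replicate block and leaving out each library. The members and lists were chosen with earlier results of these data known. Named genes were the members, list genes that passed, 10 direct partners where tested, and the 6 genes nearest in profile to PABPC1 and to PABPC4. Sequences and exons are from GENCODE 29 (GRCh38), and coordinates apply to that build only. Alignments used Biopython 1.88.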

Additional observations from a re-analysis of the deposited data

Results flagged for a closer look

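PABPN1 in plko 1 stood apart from the other control libraries, at 79.4 against 164.2 to 239.9 in the other 7. The gap to its nearest neighbour was 0.528 of the whole range, just past Dixon's 95% critical value for 8 samples. It was 1 of 33 quantities examined in the 8 controls, and chance marks about 1 in 20. Plko 1 is the shallowest library (375713 reads), and its value rests on 36 reads. The part of depth was not tested.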

How the results depend on the processing

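With plko as the only control the PABPC1 differences were -0.78 (KLF5), -1.04 (RBPJ), -1.31 (NFIB) and 0.078 (FOXA1). Leaving out 1 library at a time gave -0.75 to -0.53, -0.96 to -0.87, -1.30 to -1.05 and 0.15 to 0.29 in the same order, and for PABPC3 -1.51 to -0.83 (KLF5) and -1.50 to -0.89 (NFIB). PABPC4 with RBPJ hairpins ran from -0.56 to 0.25. The number of the 82 list genes past the threshold was 14 for KLF5 against the 6 hairpin controls, 9 with DESeq2 and 0 with plko as the only control (limma; 12 at an unadjusted p under 0.05), and 2 to 8 over the fits without 1 library. It was 0 to 1 for RBPJ, where PAPOLA, named after its values were seen, passed without RBPJ 1, and 2 to 10 for plko. Counts over all tested genes moved between fits too, so these list counts show no trait of the lists. A lone library left in a group is assumed to vary like the others. Of the values that answer a comparison 330 were the same under an alternative and 19 moved. For a member's difference, the same means within its SD between the libraries of a name, even where the sign changed. For PABPC4 that SD was 0.31 log2. For a count it means within a set ratio. The fits with 8 levels and with a replicate block cannot move the members' differences, so the 330 overstates how stable they are. Small differences changed sign when 1 library was left out, as for PABPC4 with RBPJ hairpins, GSPT1 with KLF5 hairpins (-0.29 to 0.07) and EIF4G1 with NFIB hairpins (-0.27 to 0.35). The filter does not touch the members' values. The cause of each shift was not tested.

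Same-numbered libraries did not deviate together: over 28 pairs of names the correlation ran from -0.19 to 0.22 (median 0.03), and 3 exceeded 0.1. Replicate numbers were thus not taken as pairs. With a replicate block the list counts were 5 for KLF5, 0 for RBPJ, 0 for NFIB, 0 for FOXA1 and 7 for plko. The members' differences, such as -0.64, -0.90, -1.17 and 0.22 for PABPC1, could not change with the block. Every name has a library of each replicate number, so that fit is no check on them. Counts near the floor of 3 reads, as for PABPC1L, EEF1A1 and EIF3F, limit those genes.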
